A study of Mus musculus with 12 samples.

Results

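Plasmacytoid dendritic cells (pDC) made up 331 of the 54955 cells in the CD45 libraries of 6 mouse mammary tumours, in a series of 115612 cells in 12 libraries. They were the cells that the authors' deposited annotation placed in the broader class Other Myeloid and in the finer class NK. Of the 331 cells, 22 were called doublets, that is, droplets holding more than 1 cell, and were left out. The remaining 309 cells carried 919103 UMIs (unique molecular identifiers, each counting 1 captured RNA molecule). The parental tumour gave 58 of them, M 14, EM3 30, EM2 94, EM1 58 and E 55.

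The tumours grew in the mammary fat pad of female BALB/c mice aged 9 to 11 weeks, from 4T1, a mammary carcinoma line of the same strain that is used to study triple-negative disease. Clones E, EM1, EM2, EM3 and M each descend from 1 cell of that line, and per the series' design text they span an epithelial to mesenchymal range; the parental 4T1 line is the unselected group. The labels name no drug and no genetic change in any group, and all hosts are of the same strain. Each group is 1 tumour, with a library labelled Total and a CD45 library of cells held on magnetic beads against the leukocyte antigen CD45. With 1 tumour per group no difference between clones could be tested, and the intervals given here cover counting error only.

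pDC are a dendritic cell lineage that detects RNA and DNA in endosomes through the Toll-like receptors Tlr7 and Tlr9 and can answer with large amounts of type I interferon. Their identity depends on the E protein Tcf4, also called E2-2, a transcription factor that binds short DNA motifs named E-boxes and that the inhibitors Id2 and Id3 can hold away from DNA. In tumours, pDC have been described as poor producers of interferon and as partners of regulatory T cells.

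The 12 libraries held 28083101 to 122055131 UMIs over 6709 to 13467 cells. The E and EM3 libraries shared 15.1% to 16.7% of their droplet barcodes (as a share of the smaller library), the EM1 and EM2 libraries 12.2% to 14.0%, and the 2 libraries of M and of the parental tumour 19.1% and 16.4%. Any 2 libraries of different sets shared at most 1.91%. No full cell barcode was shared within a set, and at most 189 were shared by 2 libraries of different sets. The comparisons of EM3 with E and of EM2 with EM1 therefore lie within such a set, while that of M with E crosses sets. Those of EM1 with E and of the parental tumour with any clone cross sets too.

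The cells carried the markers of pDC and had little or none of the NK markers, which goes against the finer label NK. Levels are given as CPM, the UMIs of a gene per 1000000 UMIs of all genes, after adding up the cells of a class within a library. The 4 markers Siglech, Ccr9, Tcf4 and Bst2 together reached 9953 to 15089 CPM in pDC of the 6 tumours and at most 683 CPM in any other class. Of 6 NK markers, 5 were in the tables, and they summed to 0 to 21.6 CPM in pDC against 1880.0 to 7376 CPM in annotated NK cells, with Ncr1, Klre1 and Prf1 at 0 in every tumour. The B cell markers Cd79a and Ms4a1 were also at 0 in all 6, and 5 T cell markers summed to at most 272 CPM, against 3719 to 4890 CPM in T cells. The 4 plasma cell markers summed to 2454 to 3754 CPM in pDC and 292 to 13875 CPM in B cells, with Tnfrsf17 at 0 in pDC and Xbp1, described below, as the main part. The 5 conventional DC markers, Xcr1, Clec9a, Cd209a, Zbtb46 and Itgax, summed to 617 to 880.3 CPM in pDC and 691 to 919 CPM in DC. The 4 tumour markers, Epcam, Krt8, Krt18 and Cdh1, summed to 155 to 393 CPM, above the other classes by median, with Krt18 at 0. Of these, Cdh1 alone passed the filter of 100 CPM in the comparisons between tumours below. Klrd1, an NK receptor gene outside the marker list, lay at 156 to 524 CPM in pDC. A second label in the deposited tables, from the reference-based method SingleR, called 241 of the 331 cells (72.8%) DC, 28 macrophages, 25 pro-B cells and 24 monocytes, and called none NK.

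Macrophage and granulocyte RNA was present at levels that varied by tumour. The 5 macrophage markers summed to 529 CPM in the parental tumour, 262 in M, 3692 in EM3, 1376 in EM2, 435 in EM1 and 437 in E, against 528 to 1639 in B cells and at least 8117 CPM in macrophages. In EM3 this was above the T cells (1135 CPM), NK cells (1162 CPM) and B cells (1184 CPM) of the same library, and in EM2 above its T cells (800.3 CPM), NK cells (585 CPM) and B cells (922 CPM). Values without the cells richest in macrophage RNA are given with the comparisons of these tumours. At a fixed 1000 UMIs per cell, which 300 of the 309 cells reached, 25.7% of pDC had a UMI of the macrophage gene C1qa, against 33.9% of T cells and 30.9% of B cells, and 26% had one of the granulocyte gene S100a8, against 47.1% of T cells. Pooled over the tumours, these shares are no higher than in T cells and are not read as expression. By tumour the S100a8 share in pDC ran from 17.9% to 58.6%. The 5 granulocyte markers summed to 583 CPM in pDC of the parental tumour, 2098 in M, 2733 in EM3, 586 in EM2, 387 in EM1 and 728 in E, so that EM3 and M were highest. T cells of those libraries had 1788 CPM in M, 2587 in EM3 and 1569 in E, and the part of this RNA in the differences of EM3 and M from E was not tested. Siglech was seen in 94% of pDC at this depth and in 0.179% of T cells, Ccr9 in 82.7%, Bst2 in 98% and Tcf4 in 45.7%. Without thinning, at a median of 2370 to 3850 UMIs per cell by tumour, 308 of the 309 cells had at least 1 UMI of Siglech.

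The genes that set pDC apart were headed by Siglech, a sialic acid-binding receptor, and by Klk1, a kallikrein protease. Because the authors' classes were drawn from the same expression values, the following levels describe the class and no test was made. Of 4459 genes with at least 100 CPM in pDC or another class, 89 (2%) were at least 2-fold higher in pDC than in the highest other class in 6 of 6 libraries, on the log2 scale with 50 CPM added. Siglech lay at 3496 CPM in the parental tumour, 3503 in M, 3053 in EM3, 3708 in EM2, 3123 in EM1 and 3198 in E, and its mean in other classes was at most 6.52 CPM. The 6 tumours lay close together for this gene. Klk1 lay at 3369.8 CPM in the parental tumour, 2529 in M, 2206 in EM3, 2833 in EM2, 2954 in EM1 and 3069 in E, with 0 to 77.9 CPM in NK cells and a mean of at most 1.15 CPM in each of the other classes.
Ccr9, the chemokine receptor for Ccl25, lay at 2637 CPM in the parental tumour, 1911 in M, 1619 in EM3, 1604 in EM2, 1548 in EM1 and 1791 in E, highest in the parental tumour. Cox6a2, a subunit of cytochrome c oxidase otherwise known from muscle, lay at 955 CPM in the parental tumour, 712 in M, 706 in EM3, 720.1 in EM2, 822 in EM1 and 922 in E. Bst2, also called tetherin or PDCA-1, lay at 8241 CPM in the parental tumour, 5844 in M, 4724 in EM3, 7404 in EM2, 6362 in EM1 and 6423 in E, lowest in EM3, and the next class, Other Myeloid, had a mean of 473 CPM. The log2 difference of Bst2 in EM3 from E was -0.44 in these libraries and 0.16 (-0.02 to 0.34) in the Total libraries. The remaining genes among the 15 with the largest difference were the acyltransferase gene Lpgat1, Dntt, Mtss2, Tmem229b, Cyb561a3, the adaptor Shb, Smim5, Rell1, the heparanase Hpse and D13Ertd608e, with mean log2 differences of 3.23 for Lpgat1 down to 2.80 for D13Ertd608e, where Siglech had 5.85.

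**Figure D1:**
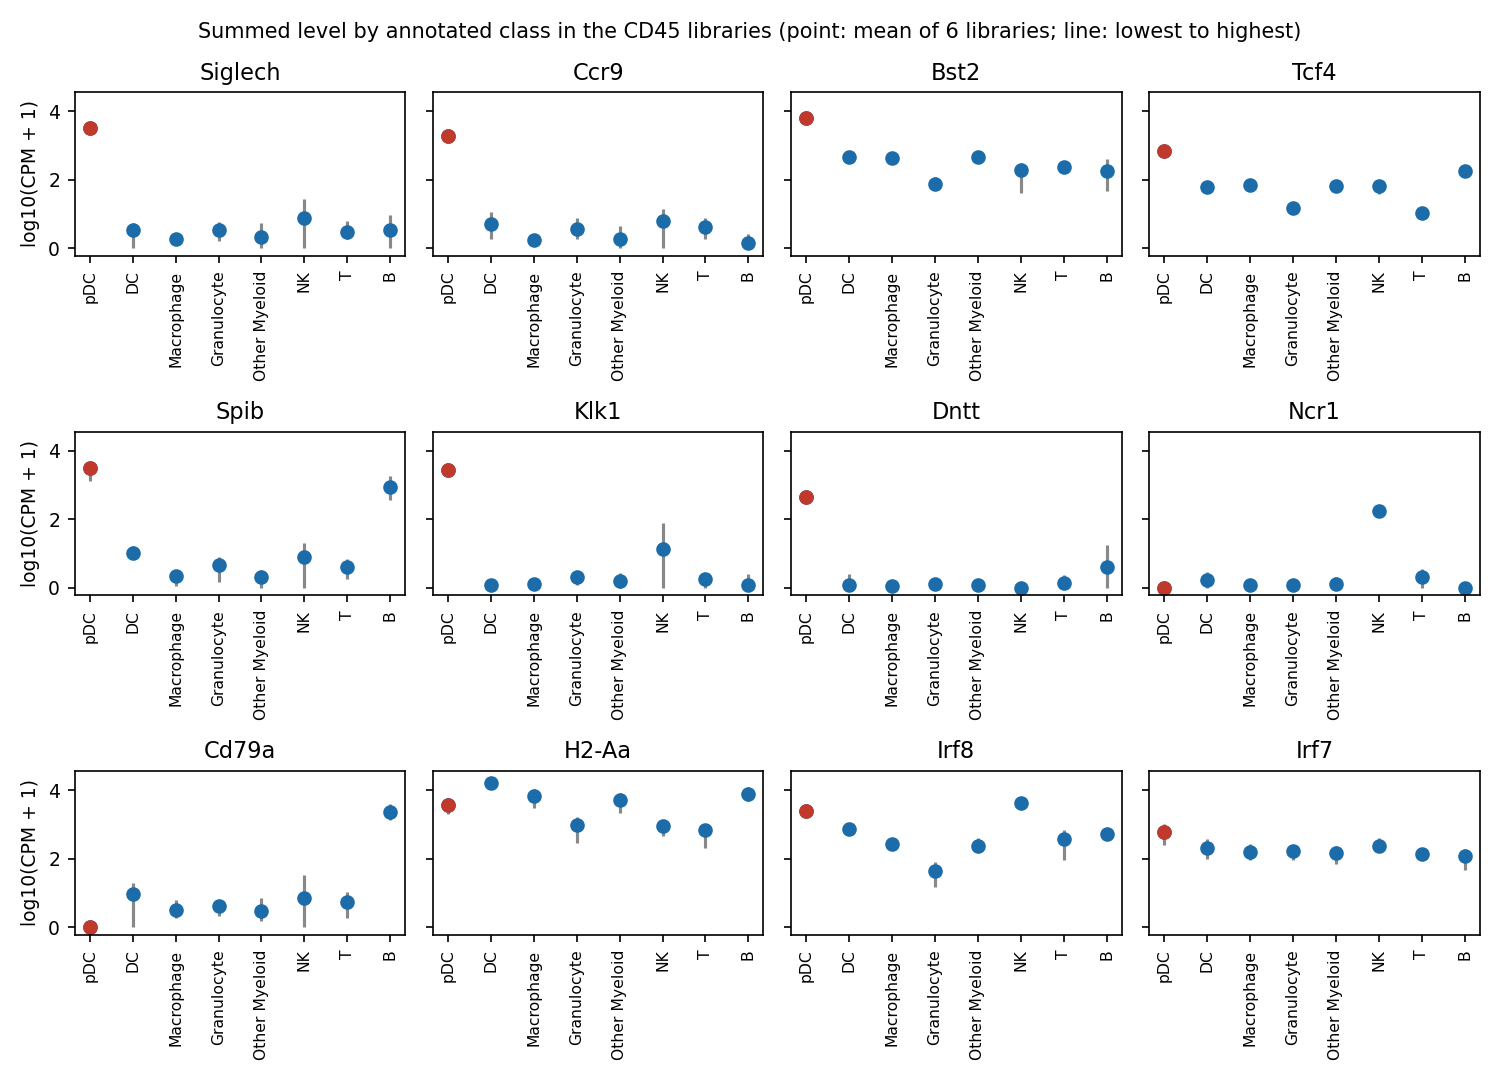
Level of 12 genes in 8 annotated classes of the CD45 libraries, as log10 of CPM plus 1; each point is the mean of 6 libraries, each line runs from the lowest to the highest library, and pDC are in red. Siglech, Ccr9, Klk1 and Dntt stand well above every other class in pDC, Spib is shared with B cells and Irf8 with NK cells, Ncr1 and Cd79a are at 0 in pDC, and H2-Aa lies below its level in DC.

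The same genes were found in separate cells. In the Total libraries, 320 cells carried a UMI of Siglech and of at least 1 of Ccr9, Tcf4, Pacsin1 and Cox6a2. Of these, 202 lay in the authors' class B and are taken here as the pDC of the Total libraries. They are other cells of the same tumours, not further tumours. Setting aside these 5 genes, 84 of the 89 remained, and 65 of the 84 were again at least 2-fold higher than in every other immune class in 6 of 6 Total libraries, where the rate over all genes was 2.06%. Of the 84, 83 were higher in 6 of 6 libraries at any size. Of the 65, 57 also exceeded tumour cells, fibroblasts and endothelial cells at least 2-fold. For these further counts the rate over all genes was not computed. Klk1 had a mean log2 difference of 5.61 in the Total libraries and Bst2 of 3.67.

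Since Tcf4 binds E-boxes, the promoters of the 15 leading genes were read for CAGGTG on either strand (CACCTG where it lies on the other strand). RefSeq promoters of the build GRCm38.p6, which is mm10, were at hand for 12 of the 15 genes, and the 250 bases before the annotated start were used. The motif was found for 6 of the 12 genes: Siglech, Klk1, Ccr9, Bst2, Tmem229b and Cyb561a3. These 12 genes have 16 promoters in the table, of which 7 held it, as did 17.2% of all 32851 promoters of this length. A match is a description of the sequence, and binding was not measured here. The promoters of the 4 matched genes with the largest differences are shown 5′ to 3′ on the gene's strand, with the motif in capitals.
Siglech, chr7:55767934-55768183, plus strand, motif 20 bases before the start: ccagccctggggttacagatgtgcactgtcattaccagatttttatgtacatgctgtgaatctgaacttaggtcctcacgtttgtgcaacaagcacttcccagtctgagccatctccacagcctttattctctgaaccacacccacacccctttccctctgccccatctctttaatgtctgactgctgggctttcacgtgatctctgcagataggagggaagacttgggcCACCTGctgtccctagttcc
Klk1, chr7:44225110-44225359, plus strand, motif 87 bases before the start: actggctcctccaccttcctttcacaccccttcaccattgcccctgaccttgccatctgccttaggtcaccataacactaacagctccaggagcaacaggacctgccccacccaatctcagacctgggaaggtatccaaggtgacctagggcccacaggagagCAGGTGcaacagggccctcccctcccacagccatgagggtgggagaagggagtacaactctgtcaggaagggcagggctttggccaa
Ccr9, chr9:123766961-123767210, plus strand, motif 85 bases before the start: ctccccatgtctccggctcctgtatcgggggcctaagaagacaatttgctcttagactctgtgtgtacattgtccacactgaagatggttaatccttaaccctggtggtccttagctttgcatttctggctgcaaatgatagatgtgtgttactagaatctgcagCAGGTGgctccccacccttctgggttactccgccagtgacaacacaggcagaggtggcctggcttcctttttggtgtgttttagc
Bst2, chr8:71537473-71537722, minus strand, motif 205 bases before the start: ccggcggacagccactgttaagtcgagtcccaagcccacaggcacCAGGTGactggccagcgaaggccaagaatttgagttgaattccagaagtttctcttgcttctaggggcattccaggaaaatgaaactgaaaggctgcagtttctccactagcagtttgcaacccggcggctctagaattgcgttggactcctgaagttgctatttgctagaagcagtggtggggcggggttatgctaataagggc
In Siglech the letters read CACCTG on the gene's strand, and in the other 3 genes CAGGTG. The motif lies close to the start in Siglech and far from it in Bst2, so its position is not shared.

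The regulators of pDC identity were present, with unequal spread over the tumours. Of 30 genes listed as pDC identity genes, 29 were in the tables, 27 reached 100 CPM in at least 1 tumour and 10 were among the 89 above. The list also holds Id2 and Id3, which inhibit E proteins. Tcf4 lay at 715 CPM in the parental tumour, 749 in M, 557 in EM3, 642 in EM2, 719.7 in EM1 and 787 in E, a narrow range, with 182 CPM in B cells as the next class. Runx2, a transcription factor that works with Tcf4 in pDC, lay at 305 to 582 CPM and Bcl11a, another, at 134 to 412. Irf8, needed for several dendritic cell lineages, lay at 2221 to 3144 CPM and was higher in NK cells, with a mean of 4331. Spib, an ETS factor of pDC and B cells, is described with the tumours below. Id2, which opposes Tcf4, lay at 59.3 to 297 CPM against a mean of 1837 in DC and 1623 in NK cells.

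Surface and effector genes of pDC showed the same mixture of even and uneven levels. Ly6c2 lay at 1032 to 2411 CPM, lowest in EM3, and Cadm1, an adhesion molecule, at 631 to 1135. Flt3, the receptor for the cytokine on which pDC depend, lay at 61.1 to 192 CPM against 39.9 in DC. Pacsin1 lay at 203 to 292 and the ribonuclease Rnase6 at 156 to 408. Klra17, which encodes the pDC receptor Ly49Q, lay at 74.3 to 147 CPM and at 0 in all NK libraries. Ly6d, a mark of a lymphoid origin, was uneven, with 162 CPM in the parental tumour, 18.7 in M, 14.9 in EM3, 138 in EM2, 285 in EM1 and 48.5 in E. EM1 was the highest, with 42 UMIs, while the values of M and EM3 rest on 1 and 2 UMIs and that of E on 9, so these tumours cannot be ranked. Upb1 and Cd300c stayed under 100 CPM in every tumour.

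Against annotated NK cells, with which the finer label joins them, pDC differed in a large share of genes. Of 3265 genes compared, 284 (8.7%) were at least 2-fold higher in pDC and 237 (7.26%) at least 2-fold lower in 6 of 6 libraries. Of the pDC identity genes, 27 were compared, 19 were higher and 1, Id2, was lower. The highest were Siglech, Spib, Klk1, Mpeg1, Ccr9, Bst2, Pltp, Grn, Pld4 and Cyb561a3. Mpeg1, the pore-forming protein perforin-2, lay at 4873 to 8265 CPM in pDC and a mean of 112 in NK cells, a mean log2 difference of 5.41. Grn, the lysosomal protein progranulin, lay at 4549 to 5406 against 215. The lowest were Ccl5, Il2rb, Gzma, Gzmc, Car2, Nkg7, Trbc1, Sh2d2a, Cemip2 and Ctla2a. Gzmc, a granzyme, had no UMI in pDC of any tumour against 291 to 17076 CPM in NK cells, and the receptor gene Il2rb lay at 0 to 67.9 against 5219.

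The machinery of endosomal nucleic acid sensing was in place, while interferon genes were not detected above a few UMIs. Of 23 sensing genes listed, 21 were in the tables and 14 reached 100 CPM. Tlr7, the receptor for single-stranded RNA, lay at 348 CPM in the parental tumour, 299.7 in M, 275 in EM3, 280.3 in EM2, 217 in EM1 and 307 in E, against means of 51.8 CPM in macrophages and 16.6 in DC. Tlr9, the receptor for unmethylated DNA, lay at 312 CPM in the parental tumour, 149.8 in M, 104 in EM3, 233 in EM2, 217 in EM1 and 221 in E, lowest in EM3, with 57.2 in B cells as the next class. Tlr7 and the exonuclease gene Pld4, which trims DNA in endosomes, were among the 89 genes. Pld4 lay at 1515 to 2276 CPM. The chaperone Unc93b1, which carries these receptors to endosomes, lay at 1175 to 1686 and the transporter Slc15a4 at 208 to 318. Irf5 lay at 393 to 686 CPM and was higher in DC (1244), and the adaptor Myd88, at 69 to 122, was close to its level in every class. The endosomal receptor Tlr3 was at most 7.43 CPM. Among sensors of the cytoplasm Ddx58 (RIG-I) was at most 7.43 CPM, Cgas 14.9 and Ifih1 54.3, while Tmem173 (STING), which acts downstream of Cgas, lay at 60.1 to 149.8 CPM.

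Of 19 type I and III interferon genes listed, 15 were in the tables and 13 had no UMI in any of the 309 cells. Ifnk and Ifnl2 had 1 UMI each, so the whole list gave 2 UMIs in 919103. A count of 0 over all pDC allows up to 3.26 CPM. In pDC of the Total libraries the same 15 genes gave 3 UMIs in 657837. Of 25 interferon response genes, 23 were in the tables and 10 reached 100 CPM. Isg15, an ubiquitin-like protein induced by interferon, lay at 132 CPM in the parental tumour, 37.5 in M, 59.4 in EM3, 69 in EM2, 27.2 in EM1 and 59.3 in E, against a mean of 769 CPM in granulocytes and 196 in DC. Ifit1, Ifit2, Ifit3, Rsad2 and Cmpk2 stayed under 30 CPM in every tumour. Both chains of the receptor for type I interferon were high: Ifnar1 lay at 899 to 1402 CPM against at most 363 as a mean in another class, and Ifnar2 at 891 to 1442 against 273 in macrophages.

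**Figure D2:**
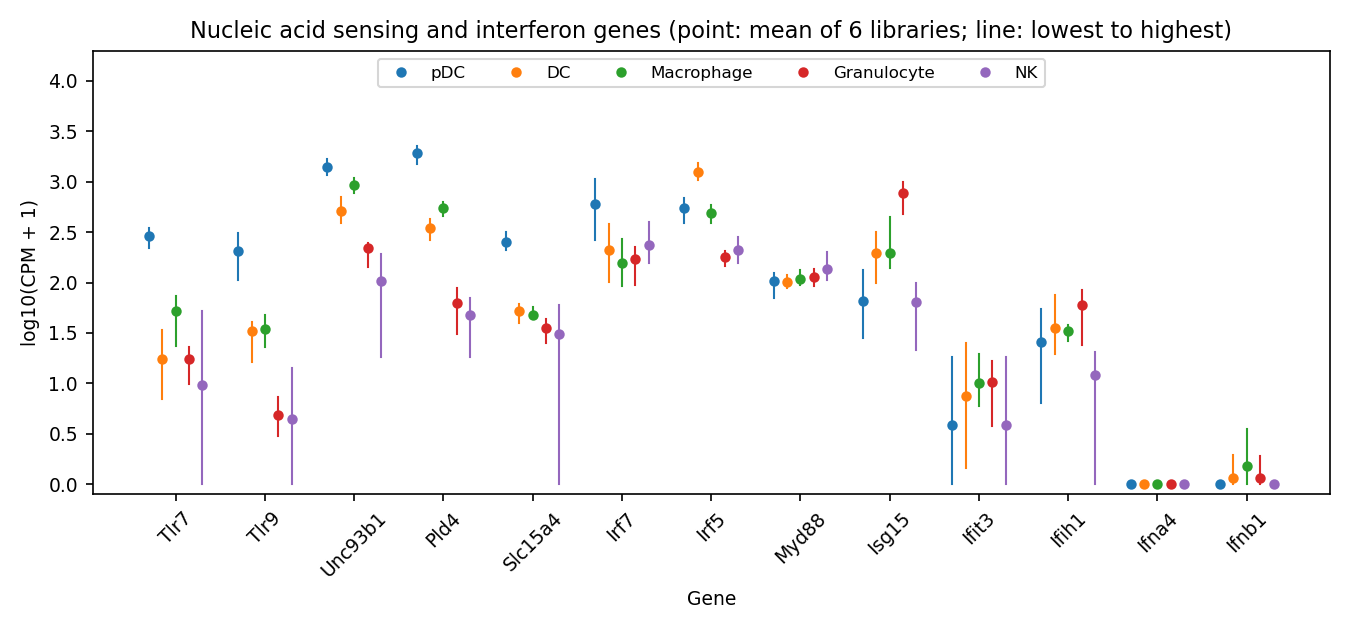
Nucleic acid sensing and interferon genes in 5 annotated classes of the CD45 libraries, as log10 of CPM plus 1; points are means of 6 libraries and lines run from the lowest to the highest library. Tlr7, Tlr9, Pld4 and Slc15a4 lie highest in pDC, Isg15 lies highest in granulocytes, and Ifna4 and Ifnb1 are at 0 in pDC.

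By mean over the 6 tumours, H2-Aa, H2-Ab1, H2-Eb1 and Cd74 lay below their levels in DC, macrophages and B cells and above those in T cells and NK cells. Of 18 genes listed for class II presentation and costimulation, all in the tables, 11 reached 100 CPM. The list also holds the class I presentation genes Tap1, B2m, H2-K1 and H2-D1. The class II chain H2-Aa lay at 3262 CPM in the parental tumour, 2004 in M, 3484 in EM3, 5817 in EM2, 3707 in EM1 and 3732 in E, against means of 16556 CPM in DC, 6949 in macrophages, 7707 in B cells and 718 in T cells. M was the lowest and EM2 the highest. Cd74, the invariant chain, lay at 4345 to 9762 CPM against 24667 in DC. The costimulatory genes Cd80, Cd86 and Cd40 stayed under 100 CPM in every tumour, against means of 519.8, 560.4 and 157 in DC.

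Among 17 regulatory molecules, 16 were in the tables and 9 reached 100 CPM. Lag3, an inhibitory receptor known from exhausted T cells, lay at 745 CPM in the parental tumour, 375 in M, 305 in EM3, 509 in EM2, 380.2 in EM1 and 588 in E, above its mean of 255 in T cells. Lair1, an inhibitory collagen receptor, lay at 463 CPM in the parental tumour, 862 in M, 364 in EM3, 397 in EM2, 359.9 in EM1 and 324 in E, highest in M, against 144 in the remaining Other Myeloid cells. Cd274, which encodes PD-L1, lay at 216 CPM in the parental tumour, 18.7 in M, 66.9 in EM3, 159.5 in EM2, 177 in EM1 and 113 in E, under its mean of 504 in DC. The value of M was under the 56.2 CPM that a count of 0 allows. The log2 difference of Cd274 from E was -1.25 in M and -0.48 in EM3. In the Total libraries it was 0.11 (-1.62 to 1.67) in M and 0.05 (-1.94 to 1.70) in EM3. Ido1 had no UMI, and Gzmb lay at 0 to 74.9 CPM against 1069.9 in NK cells, with the highest value, in M, from 4 UMIs. At 1000 UMIs per cell no pDC had a UMI of Gzmb, against 14.6% of T cells.

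Of 18 genes shared with the B lineage and with secretion, 12 reached 100 CPM in at least 1 tumour. Ighm, the mu heavy chain, lay at 1729.9 CPM in the parental tumour, 2285 in M, 1292 in EM3, 1363 in EM2, 1528 in EM1 and 1100.2 in E, against a mean of 8518 CPM in B cells and 80.2 in T cells. Dntt, the terminal transferase of lymphoid progenitors, lay at 396 CPM in the parental tumour, 487 in M, 535 in EM3, 439.8 in EM2, 292 in EM1 and 485 in E and at most 2.99 as a mean in other classes. Xbp1, a regulator of the secretory pathway, lay at 2346 to 3706 CPM against 712 in B cells, Blnk at 557 to 955 against 240.4, and Mzb1 at 354 to 584 against 1625. Cd79a had no UMI, and Ebf1, Pax5 and Rag1 were at most 5.39 CPM. Igkc and Jchain reached 10109.9 and 1127 CPM in EM1, where a single cell held at least 85.2% of the UMIs that all pDC had of each.

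Of 18 chemokine and homing genes measured, 16 reached 100 CPM in at least 1 tumour. For Ccl5 this held in E and EM1 alone, with 20 and 24 UMIs, against at most 1 UMI in each other tumour. Selplg, the P-selectin ligand, lay at 1530.1 to 2884 CPM. Cxcr4 lay at 509 to 974, under the mean of 2588 in B cells. Ccr7, the receptor of migratory DC, lay at 66.9 to 244 CPM against 2641 in DC. Of 12 genes listed for transitional dendritic cells, 11 were in the tables and 7 reached 100 CPM. Cd8a, carried by some mouse pDC, lay at 469 CPM in the parental tumour, 562 in M, 267 in EM3, 159.5 in EM2, 312 in EM1 and 448 in E, and Itgax, which encodes CD11c, at 453 to 543 CPM. Among marks of conventional dendritic cells, Clec9a lay at 44.6 to 210.3 CPM against a mean of 183 in DC and Cd209a at 53.9 to 225 against 75.8, while Zbtb46, Xcr1 and Batf3 were at most 20.4 CPM.

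Of 12 division genes, 11 were in the tables and 2, Pcna and Tubb5, reached 100 CPM, at 104 to 206 and 37.5 to 193 CPM against means of 382 and 403 in T cells. Mki67 was seen in 1 of 300 pDC at 1000 UMIs per cell (0.333%), against 5.28% of T cells and 21.7% of the remaining Other Myeloid cells, and Top2a likewise in 1 of 300. Without thinning, at most 3.33% of the pDC of a tumour had a UMI of Mki67.

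The share of pDC differed between the tumours by more than counting error. Of all CD45 cells that were not doublets, pDC were 0.867% (0.659 to 1.12) in the parental tumour, 0.187% (0.102 to 0.313) in M, 0.278% (0.188 to 0.397) in EM3, 1.05% (0.851 to 1.29) in EM2, 0.623% (0.473 to 0.805) in EM1 and 0.517% (0.39 to 0.673) in E, with exact Clopper-Pearson intervals at 95%. EM2 and the parental tumour were highest and M and EM3 lowest, and neither of these pairs of neighbours differed beyond counting error. EM3 minus E was -0.239 percentage points (95% interval -0.419 to -0.0652), M minus E -0.331 percentage points (95% interval -0.508 to -0.151) and EM2 minus EM1 0.429 percentage points (95% interval 0.158 to 0.706). E and EM1 did not differ beyond counting error, at 0.106 percentage points (95% interval -0.11 to 0.328) for EM1 minus E, nor did EM1 and the parental tumour, at 0.244 percentage points (95% interval -0.0319 to 0.538) for the parental tumour minus EM1. That last interval excludes 0 when granulocytes are left out, at 0.423 percentage points (95% interval 0.0727 to 0.802). By the same measure M minus E was -0.306 percentage points (95% interval -0.572 to -0.001), with its upper end near 0. EM3 minus E was then -0.299 percentage points (95% interval -0.539 to -0.0647) and EM2 minus EM1 0.461 (95% interval 0.148 to 0.779). With granulocytes left out of the denominator, the shares were 1.16% in the parental tumour, 0.376% in M, 0.383% in EM3, 1.19% in EM2, 0.733% in EM1 and 0.682% in E. Per 100 annotated DC there were 38.7 pDC in the parental tumour, 14.4 in M, 10.2 in EM3, 28.4 in EM2, 28.2 in EM1 and 17.7 in E. These are shares of cells held on CD45 beads.

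**Figure D3:**
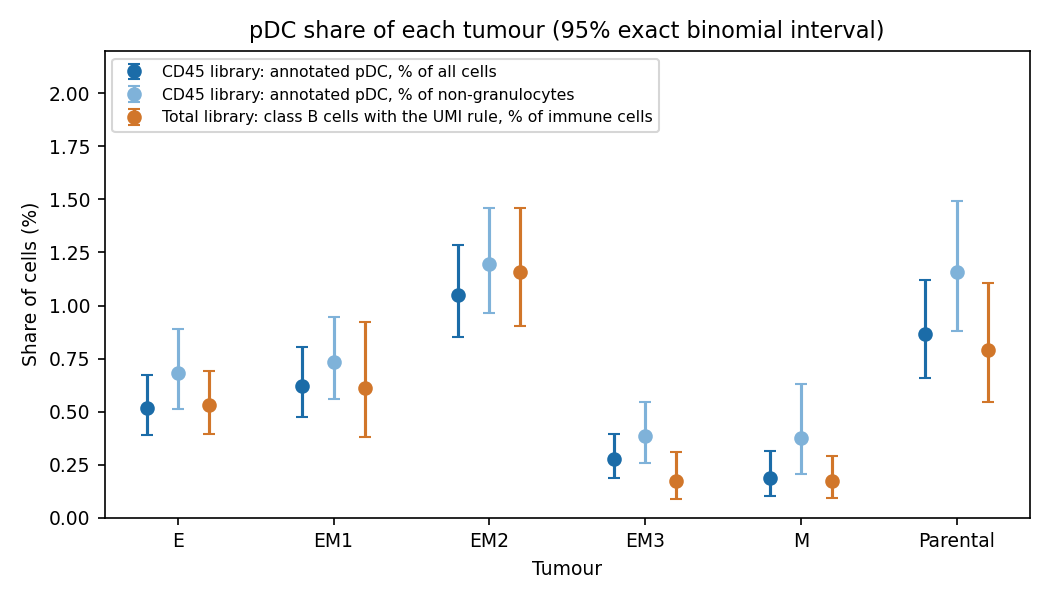
Share of pDC in each tumour, in percent, with 95% exact binomial intervals: annotated pDC of all CD45 cells, of CD45 cells without granulocytes, and class B cells with the UMI rule among immune cells of the Total library. In each measure EM2 is highest and EM3 and M are the 2 lowest.

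The share of pDC-like cells in the Total libraries followed the annotated share in the CD45 libraries across the tumours. Cells with a UMI of Siglech and of at least 1 further marker were 0.732% of the Total library in the parental tumour, 0.298% in M, 0.307% in EM3, 0.892% in EM2, 0.426% in EM1 and 0.583% in E. Across the 6 tumours this share and the annotated CD45 share had Pearson's r = 0.946 (exact two-sided permutation p = 0.00833, 0.0167 after Benjamini-Hochberg adjustment over 2 relations) and Spearman's rho = 0.943 (exact permutation p = 0.0167, adjusted 0.0333). Without EM2 and M, the tumours farthest from the median CD45 share, r was 0.862. Of these 320 Total cells, 202 were in class B. They were 33 of 77 in the parental tumour, 14 of 39 in M and 11 of 26 in EM3. In EM2 they were 70 of 87, in EM1 22 of 28 and in E 52 of 63. In the parental tumour 35 of the 77 were in the tumour class. Counting class B cells alone, the share was 0.107% of the Total library in M and 0.130% in EM3. The annotated CD45 share was also set against an epithelial-mesenchymal score of the tumour cells. This score takes the mean log2 level of 13 epithelial genes from that of 12 mesenchymal ones. The relation of share and score had r = -0.259 (exact two-sided permutation p = 0.647, adjusted 0.647) and rho = -0.429 (exact permutation p = 0.419, adjusted 0.419). Without E and EM3, r was -0.641. The sets of libraries that share droplet barcodes hold at most 2 tumours each, too few for a relation within a set.

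Between tumours most genes of pDC lay within 2-fold, and the genes that did not included regulators. Between EM3 and E, 2924 genes had at least 100 CPM in 1 of the tumours, and 109 (3.73%) were at least 2-fold higher and 44 (1.5%) at least 2-fold lower in EM3, with intervals on 1 side of 0 for all 153. Of 25 pDC identity genes compared, 2 were higher (Id2 and Id3, the E protein inhibitors on that list) and 3 lower (Spib, Irf7 and Ly6c2), with a median log2 difference of -0.21 against -0.04 over all genes. Id2 differed by 1.67 (95% interval 1.33 to 3.44) in the CD45 libraries and, on the other side of 0, by -0.47 (-2.65 to 0.83) in the Total libraries. Between M and E, 3124 genes were compared, and 148 (4.74%) were higher and 152 (4.87%) lower in M, of which 124 of the lower ones had an interval on 1 side of 0. Of 26 identity genes, 4 were higher (Lair1, Smim5, Atp1b1 and Id3) and 2 lower (Spib and Irf7), with a median of 0.16 against 0.04. In the Total libraries Smim5 differed between M and E by -0.05 (-1.06 to 0.83). Both comparisons use the same E cells. M rests on 14 cells and 53389 UMIs. Between EM2 and EM1, a comparison added after the data were seen because these libraries share droplet barcodes, 2797 genes were compared, 27 (0.965%) were higher and 24 (0.858%) lower in EM2, and of 27 identity genes 0 were higher and 1, Id3, was lower. In the Total libraries Id3 lay on the other side of 0, at 0.56 (-0.81 to 3.37). The 27 higher genes became 13 without the cells rich in macrophage or immunoglobulin RNA and 71 with doublets kept.

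The 10 genes with the largest positive difference of EM3 from E were macrophage and heat shock genes: Hspa1b, Hspa1a, Fcrls, C1qa, C1qc, C1qb, Mrc1, Msr1, Stab1 and Arg1. C1qa lay at 300.3 CPM in the parental tumour, 169 in M, 1589.6 in EM3, 755 in EM2, 177 in EM1 and 178 in E, against a mean of 5165 CPM in macrophages and 439 in T cells. Hspa1b, a heat shock protein 70 gene, lay at 1783 CPM in EM3, in 6 of its 30 cells, and at 0 in E, and a single cell held 45.6% of the UMIs of all pDC. Hspa1a, Hspa1b, Fcrls and Stab1 were found in 3 to 6 of the 30 EM3 cells and the other 6 genes in 10 to 18. Across the 10 genes, 1 cell held 21.3% to 64.4% of the UMIs. In EM3, 2 of 30 pDC had at least 0.5% of their UMIs in 5 macrophage markers, as had 3 of 94 in EM2 and 0 in the other 4 tumours. Without such cells, a setting chosen after the data were seen, and without 1 cell of EM1 rich in immunoglobulin, the number of higher genes in EM3 went from 109 to 57 and C1qa from a log2 difference of 2.85 to 0.49. In the Total libraries, 3 of the 109 higher genes were again at least 2-fold higher in EM3 and 17 at least 2-fold lower. At least 2-fold higher there were 1.88% of the same 2924 genes and 5.03% of the genes compared there. At any size, 46 of the 109 were higher, with a median log2 difference of -0.23 against 0.002 over the same 2924 genes. C1qa lay at 267 CPM in EM3 and 277 in E in the Total libraries. With the called doublets kept, 6 of them in E, the count of higher genes in EM3 was 48.

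The 10 lowest in EM3 were Ly6a, Map3k14, Aldh1b1, Abcg1, Clec9a, Ccl5, Spib, Net1, Dhx37 and Dnase1l3. Of the 44 genes, 33 were also lower in the Total libraries, where the median log2 difference over the same 2924 genes was 0.002. At least 2-fold lower there were 10 of the 44. This held for 5.03% of the same 2924 genes and 5.06% of the 3140 genes compared in those libraries. For M, 106 of 152 lower genes were lower in the Total libraries and 25 at least 2-fold (4.16% of the same 3124 genes, 4.96% of those compared there). Of the 148 genes higher in M, 89 were higher in the Total libraries and 11 again at least 2-fold (2.27% and 4.86%). The median log2 difference of M from E over the same 3124 genes was 0.007 there. For EM2 against EM1, 7 of 27 higher genes passed 2-fold again (2.79% and 3.44%), as did 2 of 24 lower genes (1.22% and 2.26%). Of those 24, 8 were on the same side of 0 in the Total libraries and 3 were at least 2-fold higher there. Of the 27, 19 were on the same side of 0, and the median over all genes of this comparison was -0.009. The 7 higher genes were Actr10, Mt1 and the macrophage genes Apoe, C1qa, C1qb, Cd14 and Lyz2. Most of the 25 genes lower in M were also lower, at any size, in T cells of M than of E. Arg1, Mmp19, Il1b, Thbs1 and Igkc were among them. The exceptions, higher in T cells of M, were Cdkn1a, Dhx37, H2-Q7, Myh9, Pmaip1 and Ramp3. The share of all genes lower in T cells of M was not computed. The part of RNA from other cells in these counts was not tested. The pDC of the Total libraries were 11 cells in EM3, 14 in M and 22 in EM1, which limits these values.

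Id3, an inhibitor of E proteins, was among the few genes past 2-fold in both kinds of library for EM3 and for M. It and the next genes were singled out after their values had been seen in both. In the CD45 libraries Id3 lay at 84.1 CPM in the parental tumour, 449.5 in M, 461 in EM3, 25.9 in EM2, 122 in EM1 and 75.5 in E. In the Total libraries it lay at 71.8 CPM in the parental tumour, 303 in M, 245 in EM3, 96.9 in EM2, 49.7 in EM1 and 34.6 in E. In both kinds of library EM3 and M had the highest values, and no other tumour reached them. The log2 difference of EM3 from E was 2.02 (95% interval 1.76 to 3.56) and that of M from E 1.99 (95% interval 1.56 to 3.64). Id3 UMIs came from 10 of 30 cells in EM3, 8 of 14 in M and 6 of 55 in E, and the mean level in T cells was 13.2 CPM and in B cells 273.

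Spib was lower in EM3 and M in the CD45 libraries and less clearly so in the Total libraries. It lay at 3910.4 CPM in the parental tumour, 1311 in M, 1396 in EM3, 4416 in EM2, 4013 in EM1 and 3835 in E in the CD45 libraries, so that EM3 and M stood below the other 4. The log2 difference from E was -1.43 (95% interval -1.70 to -1.22) for EM3 and -1.51 (95% interval -1.92 to -1.19) for M. In the Total libraries Spib lay at 2126 CPM in the parental tumour, 1891 in M, 1627 in EM3, 3928 in EM2, 5651 in EM1 and 2366 in E, with EM3 and M again lowest but near the parental tumour, and log2 differences from E of -0.53 (-0.92 to -0.18) for EM3 and -0.32 (-0.65 to -0.01) for M. Irf7, the factor that drives interferon genes in pDC, lay at 1063 CPM in the parental tumour, 262 in M, 282 in EM3, 724 in EM2, 591 in EM1 and 658 in E in the CD45 libraries, with EM3 and M lowest and the parental tumour highest. In the Total libraries Irf7 lay at 341 CPM in the parental tumour, 454 in M, 223 in EM3, 538 in EM2, 646 in EM1 and 429.8 in E, where EM3 was lowest and M lay near E. Without the macrophage-rich cells the difference of EM3 from E was -1.11 for Spib, 1.69 for Id3 and -2.28 for Ly6a, described next. Tcf4 itself differed from E by -0.46 (95% interval -0.92 to -0.09) in EM3 and by -0.07 (95% interval -0.61 to 0.44) in M in the CD45 libraries, and in the Total libraries by 0.19 (-0.35 to 0.72) and -0.35 (-0.99 to 0.20). Tcf4 was among the genes used to choose the Total cells, so its level there is partly set by that choice.

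Ly6a, the surface protein Sca-1, lay at 553 CPM in the parental tumour, 131 in M, 37.1 in EM3, 586 in EM2, 401 in EM1 and 426 in E in the CD45 libraries and at 332 CPM in the parental tumour, 18.9 in M, 0 in EM3, 452 in EM2, 613 in EM1 and 449.5 in E in the Total libraries. EM3 and M were lowest in both, and their values were at most 131 CPM while the other tumours had at least 332 CPM. In the Total libraries Ly6a had no UMI in the 11 cells of EM3, 6.73-fold below E when 3 counts are taken as what a count of 0 allows. This figure takes the level of E as exact and UMIs as independent of the cells they came from. The level of Ly6a in T cells averaged 111 CPM. Dnase1l3, a secreted DNase that digests extracellular DNA, lay at 288 CPM in the parental tumour, 0 in M, 96.6 in EM3, 198 in EM2, 183 in EM1 and 329 in E in the CD45 libraries and at 233 CPM in the parental tumour, 37.8 in M, 66.8 in EM3, 484 in EM2, 265 in EM1 and 321 in E in the Total libraries. It too was lowest in EM3 and M. With no UMI of Dnase1l3 in the 14 CD45 cells of M, the figure reached in the same way was 5.85-fold below E. In E its UMIs came from 10 of 55 cells, so this figure sets no least fold between the cells of M and E. Jun, an AP-1 transcription factor, lay at 246 CPM in the parental tumour, 1217 in M, 1107 in EM3, 543 in EM2, 421 in EM1 and 356 in E in the CD45 libraries and at 466 CPM in the parental tumour, 397 in M, 1159 in EM3, 463 in EM2, 249 in EM1 and 168 in E in the Total libraries, highest in EM3 in the second and in M and EM3 in the first. T cells of the CD45 libraries had 97 CPM in the parental tumour, 246 in M, 124 in EM3, 84.2 in EM2, 107 in EM1 and 81.5 in E, with M and EM3 highest there too.

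**Figure D4:**
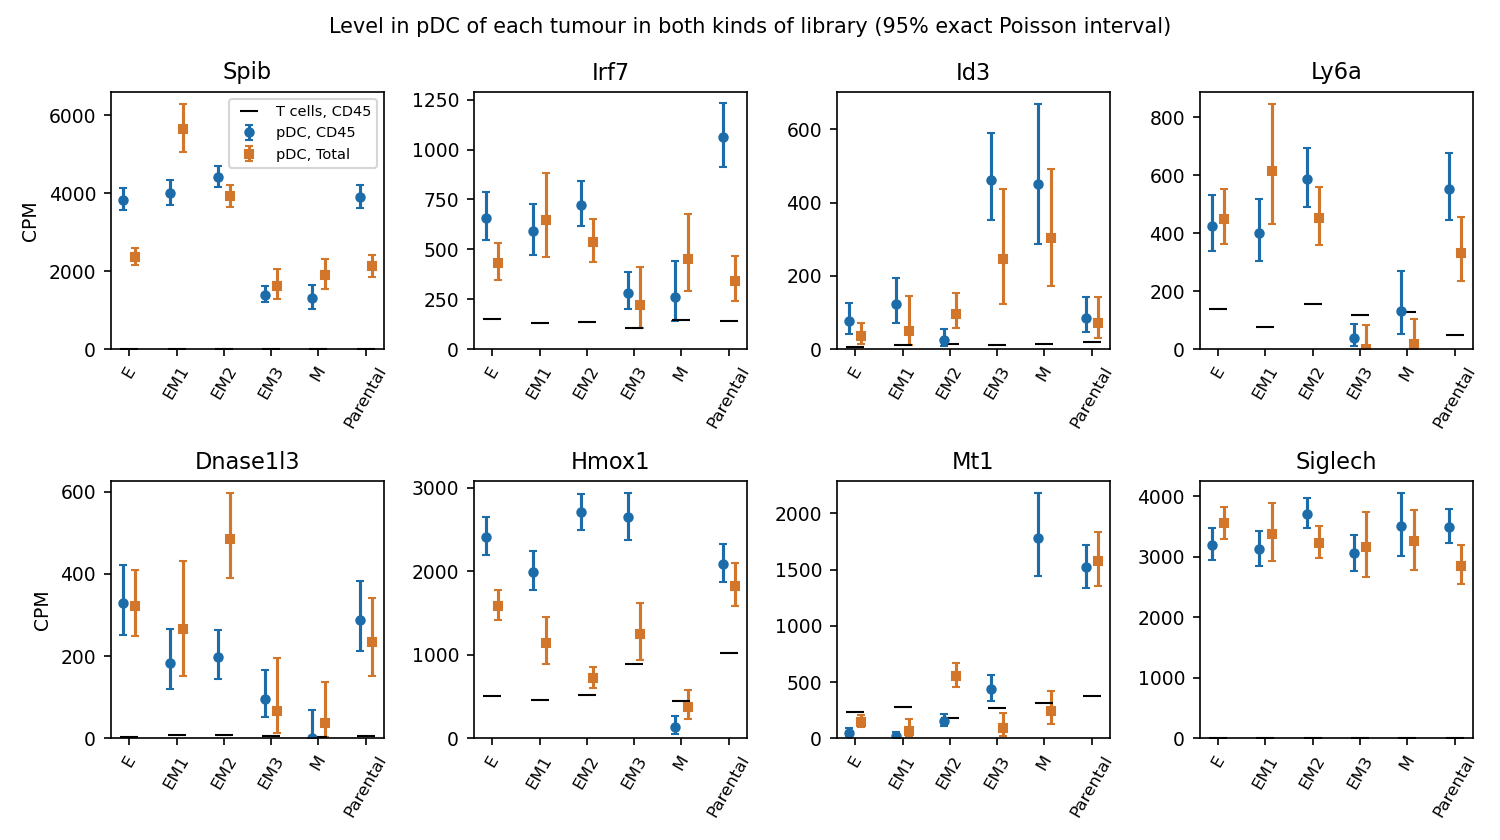
Levels of 8 genes in pDC of each tumour, in CPM, in the CD45 library (blue circles) and the Total library (orange squares) with 95% exact Poisson intervals; black bars are T cells of the CD45 library. Id3 is highest and Ly6a and Dnase1l3 are lowest in EM3 and M in both kinds of library, Hmox1 is lowest in M, Mt1 is high in the parental tumour in both and in M in the CD45 library. Siglech was used to choose the cells of the Total libraries, so its level there is partly set by that choice.

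H2-Aa in M was lower than in E by a log2 difference of -0.88 (95% interval -1.20 to -0.60) in the CD45 libraries and -0.69 (-0.99 to -0.43) in the Total libraries, and Cd74 by -0.71 (95% interval -0.92 to -0.51) and -0.83 (-1.05 to -0.63). In the CD45 libraries H2-Ab1 differed by -1.13 (95% interval -1.62 to -0.74) and H2-Eb1 by -1.01 (95% interval -1.46 to -0.66), and in the Total libraries by -0.57 (-0.98 to -0.20) and -0.93 (-1.32 to -0.60). EM3 was also lower than E in the Total libraries, by -0.35 for H2-Aa, -0.59 for H2-Ab1, -0.52 for H2-Eb1 and -0.58 for Cd74. In the CD45 libraries EM3 differed from E by -0.10, -0.05, 0.42 and 0.05 for the same genes. Of 10 genes of the class II and costimulation list compared, 3 were lower by 2-fold in the CD45 libraries: H2-Ab1, H2-Eb1 and the class I gene H2-K1. Of all genes 4.87% were lower there. Of the 10, 0 were higher, and their median was -0.61 against 0.04 over all genes. These 10 include Tap1, B2m, H2-K1 and H2-D1, which serve class I presentation, and no costimulatory gene. None of the 3 passed 2-fold in the Total libraries, where H2-K1 differed by -0.61 (-1.08 to -0.21). Hmox1, heme oxygenase 1, lay at 2090.3 CPM in the parental tumour, 131 in M, 2644 in EM3, 2708 in EM2, 1996 in EM1 and 2416 in E in the CD45 libraries and at 1830.0 CPM in the parental tumour, 378 in M, 1248 in EM3, 721 in EM2, 1144 in EM1 and 1591 in E in the Total libraries. M was lowest in both. The mean of Hmox1 was 7982 CPM in macrophages and 641 in T cells, above its level in pDC of M. T cells of the same libraries had 1019 CPM in the parental tumour, 454 in M, 891 in EM3, 518 in EM2, 457 in EM1 and 509 in E. Txnrd1 and Srxn1, which act against oxidation and were chosen after their values had been seen, were past 2-fold lower in M than in E in both kinds of library. E was the highest tumour for both genes. In the CD45 libraries Txnrd1 lay at 131 CPM in M, 475 in E and 186 to 342 in the others, and in T cells at 105 in M and 187 in E. Srxn1 lay there at 18.7 CPM in M, under the 56.2 CPM that a count of 0 allows, 111 in EM3, 108 in the parental tumour and 248 in E. In the Total libraries Srxn1 lay at 22.3 CPM in EM3, below the 56.7 in M.

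Metallothionein genes, which bind zinc and other metals, were high in the parental tumour. Mt1 lay at 1519.7 CPM in the parental tumour, 1779 in M, 438 in EM3, 155 in EM2, 20.4 in EM1 and 48.5 in E in the CD45 libraries and at 1579 CPM in the parental tumour, 246 in M, 89.1 in EM3, 554 in EM2, 66.3 in EM1 and 148 in E in the Total libraries. The parental tumour was high in both, while M was high in the CD45 library alone, where 7 of 14 cells held 95 UMIs. T cells of the CD45 libraries had 373 CPM in the parental tumour, 315 in M, 271 in EM3, 179 in EM2, 283 in EM1 and 232 in E for Mt1, and the part of RNA from other cells was not tested. Mt2 lay at 1033 CPM in the parental tumour, 206 in M, 215 in EM3, 38.8 in EM2, 6.79 in EM1 and 27 in E and, in the Total libraries, at 1220.0 CPM in the parental tumour, 56.7 in M, 134 in EM3, 489.7 in EM2, 66.3 in EM1 and 39.5 in E, again highest in the parental tumour.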

How the data were processed

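Gene counts per cell (UMIs), deposited by the authors for 12 libraries, were used as deposited; Cell Ranger and mm10 are named in the submitters' processing notes, without versions, and the filter on cells is not given in the sources used here. The labels' protocols name both a fixed RNA kit and 3′ reagents; in the deposited tables the cell barcodes of each library end in 1 and the same sequence, a pattern known from multiplexed fixed RNA assays. The deposited cell tables also hold the mitochondrial percent, the same as a fraction, and a ratio of log10 genes to log10 UMIs, which the authors computed and which set no threshold here. Cell classes are the authors' deposited annotation.

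Doublets were called per library with Scrublet in scanpy 1.11.5 (2 simulated pairs per cell, 30 components, expected rate 6%, 1 limit for all libraries) and removed: 2523 of 115612 cells (2.18%), or 1.17% to 2.98% by library. Counts were summed per library and class and divided by the summed UMIs (CPM). Log2 differences use 50 CPM added to each value and genes with at least 100 CPM; a gene was called at a 2-fold difference, with no test, since each group is 1 tumour. Intervals are at 95% and cover counting error only. They are exact for CPM (Poisson), for shares (Clopper-Pearson) and for log2 differences (conditional binomial). The last are of the ratio with no CPM added, so that they need not centre on the value. Intervals of differences between shares join the 2 Clopper-Pearson intervals in the manner of Newcombe and are not exact. Relations across the 6 tumours were tested by exact two-sided permutation with Benjamini-Hochberg adjustment over 2 relations. The epithelial-mesenchymal score used gene lists written for this work, with 10 CPM added. The genes named are members of 10 lists, the 15 leading genes, the 10 at each end of a comparison, and genes past 2-fold in both kinds of library, the last chosen after their values were seen. The members and lists were chosen with earlier results of these data known. The comparison steps were tested on simulated data. Python 3.11.15, numpy 2.4.6, scipy 1.17.1 and pandas 2.3.3 were used. Alternatives were the added CPM, the gene filter, cells of at least 1000 UMIs, doublets kept, other denominators and cells mixed with macrophage or immunoglobulin RNA left out.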

Additional observations from a re-analysis of the deposited data

How the results depend on the processing

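Of 125 alternative values of the shares, marker levels, counts and relations, 91 stayed near the value reported and 34 moved. The counts of genes against NK cells and against every class, the counts per gene list and both relations did not move past their limits under any alternative run. Without granulocytes the share moved to 1.16% in the parental tumour, 0.376% in M and 0.682% in E, and among cells of at least 1000 UMIs to 0.871% in EM1, 1.32% in EM2 and 1.21% in the parental tumour. With doublets kept, the mean level of Siglech was 3153 CPM instead of 3347 and that of Bst2 6134 instead of 6499.7.

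The counts of genes past 2-fold between tumours moved most. With 10 CPM added, they were 197 higher and 109 lower for EM3 minus E, 343 and 282 for M minus E, and 92 and 75 for EM2 minus EM1. With 100 CPM added, they were 65 and 17, 45 and 80, and 8 and 12. With a filter of 200 CPM, they were 62 and 25, 60 and 71, and 12 and 12. With no filter they were 238 and 259 for M minus E and 43 and 37 for EM2 minus EM1. With doublets kept, 48 genes were higher for EM3 minus E and 71 for EM2 minus EM1. Without the mixed cells, a setting chosen after seeing the data, 57 and 13 were higher. Of 495 alternative values of named genes, 355 stayed near the value reported and 138 moved; with 100 CPM added, 47 of 106 stayed near. Of called genes, 2 reversed: Apoe in EM2 minus EM1 was -0.81 without the mixed cells, and Mmp12 was 0.13 with doublets kept. Hmox1 in EM3 minus E, which was not past 2-fold, went to -0.85 without the mixed cells. The cause was not tested.

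No paired analysis was possible because each clone has 1 tumour, so that no replicate numbers pair the clones; classes were compared within each library. The M and EM3 values rest on 14 and 30 cells, and with 1 tumour per clone the spread between tumours of a clone is unknown. A difference between clones therefore cannot be told apart from one between tumours or mice. For tumours of different library sets, it also cannot be told apart from one between sets. This holds for M against E, EM1 against E and the parental tumour against any clone.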

Other observations

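Some genes known from other cells were also present in pDC and differed in M. Klrd1, which encodes the CD94 receptor chain of NK cells, lay at 252 CPM in the parental tumour, 524 in M, 156 in EM3, 233 in EM2, 244 in EM1 and 232 in E in the CD45 libraries and at 98.7 CPM in the parental tumour, 397 in M, 423 in EM3, 226 in EM2, 166 in EM1 and 173 in E in the Total libraries. M was highest in the first, and EM3 and M were highest in the second. Cd209a, a C-type lectin of dendritic cells, lay at 84.1 CPM in the parental tumour, 225 in M, 66.9 in EM3, 121 in EM2, 115 in EM1 and 53.9 in E in the CD45 libraries and at 242 CPM in the parental tumour, 322 in M, 44.6 in EM3, 172 in EM2, 133 in EM1 and 84 in E in the Total libraries, highest in M in both. Both genes were chosen after their values had been seen, and M holds 14 cells in each kind of library.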
